A study of Homo sapiens with 3 samples.

Results

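The acyl-CoA synthetase genes measured here were ACSL1, ACSL3, ACSL4, ACSL5, ACSL6, ACSM6, ACSF2, ACSF3, ACSS1 and ACSS2. They were found as the array features whose RefSeq transcript belongs to one of these 10 genes, which gave 14 features of the 58201 on the array and 10 of 25002 named genes. Of the 10 genes, 6 had 1 feature and 4 had 2 features, and a gene was represented by its brighter feature. By that feature, 8 of the 10 were well above background in both clones on all 3 arrays. ACSL6 and ACSS1 were not.

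Acyl-CoA synthetases join a fatty acid to coenzyme A at the cost of ATP, the step that commits the fatty acid to use in phospholipids, triglycerides, protein acylation or beta-oxidation. They are grouped by the length of the chain they prefer: the ACSL enzymes act on long chains, the ACSM enzymes on medium chains, and the ACSS enzymes on acetate and other short chains, while the ACSF enzymes stand outside these groups. Glioma cells take up, make and burn fatty acids, and growth factor signaling acts on lipid synthesis in part through the transcription factor SREBP1.

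The study asked how the nuclear location of the IGF1 receptor bears on glioma cells, using clones of U-87MG, a human glioblastoma cell line. U87WT 5 (here U87WT) carries GFP-IGF1R, which reaches the nucleus. U87Mut 5 (here U87Mut) carries GFP-IGF1R1025x-1100x-1120x, in which lysines were replaced and which is labeled as non-nuclear. Both lines keep the receptor gene of U-87MG itself, and each is 1 stably transfected clone, so that a difference between them cannot be told apart from a difference between any pair of clones. RNA of U87WT (Cy5) and of U87Mut (Cy3) was hybridized together on 3 arrays, 1 for each condition. The conditions were FBS-free medium for 24 h, IGF1 (50 nM) for 24 h, and IGF1 (50 nM) with OSI906. OSI906 inhibits both the IGF1 receptor and the insulin receptor. Its dose is given in the title as 0.5 µM and in the medium label as 500 µM. The dyes were never swapped, so that clone and dye cannot be told apart either, and no condition was repeated.

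No spot was saturated on any array, and the upper quartile of brightness ran from 164 to 194 in Cy5 and from 136 to 187 in Cy3. A feature for IGF1R, which reads the cells' own transcript and may read the transgene in both clones, gave a log2 ratio between U87WT and U87Mut of 0.07, 0.23 and 0.09, with an adjusted p of 0.207 (limma). Of markers of mesenchymal glioma cells, 7 of 7 were well above background in both clones. TNC, an extracellular matrix gene, was the only one of them called, lower in U87WT with a mean log2 ratio of -0.90 (adjusted p = 0.00489, limma), and VIM had the highest mean, 0.74 (adjusted p = 0.0750, limma). Of markers of blood, epithelium, endothelium and neurons, 5 of 9 were also well above background, and their summed normalized intensity ran from 1597 to 2330.3 in U87WT and from 1373 to 1669 in U87Mut. CD3E, CDH1, KRT5 and PECAM1 were not. SNAP25, a gene of neuronal synapses, was higher in U87WT (mean log2 ratio 1.00, adjusted p = 0.00338, limma), while RBFOX3, the other neuronal marker, had log2 ratios of -0.31, -0.55 and 0.38 (adjusted p = 0.716, limma). The part of these differences in the ratios below was not tested.

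On the log2 ratio of U87WT over U87Mut, with a limit of 0.5 by size on each array, 3 of the 10 genes were above the limit in FBS-free medium, against 4.07% of all named genes. With IGF1, 6 were above it, against 4.77%, and with IGF1 and OSI906, 3, against 3.59%. None was below -0.5 on any array, where 3.77%, 2.93% and 3.48% of all named genes were, although in FBS-free medium median centring in place of loess put ACSF3 at -0.71 and the scanner software's signals put ACSL6 at -0.62. With a limit of 0.5 SD of each array, which came to 0.108 to 0.119 here, 6, 7 and 6 genes were above, against 20.5%, 24.4% and 22.3% of all named genes. ACSL5, ACSF2 and ACSM6 were above the limit on every array, as were 1.94% of all named genes. The median ratio over the 10 genes was 0.27, 0.54 and 0.12 in the order of conditions above, while the median over all named genes was -0.00, 0.01 and -0.00. Bright features passed the limit more often: among the 15343 genes well above background throughout, 6.37%, 7.33% and 5.74% were above 0.5.

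Taking the 3 arrays together as repeats of the clone difference (limma, Benjamini-Hochberg over 58174 features), ACSL5, ACSF2 and ACSM6 were called higher in U87WT, 3 of 10 against 7% of all named genes. None of the 10 was called lower, against 6.65% of all named genes. At an unadjusted p under 0.05, 5 were higher and 1 was lower, against 15.4% and 14.7% of all named genes. The arrays of this test were different conditions, so that a response to the treatment adds to its error. From these same arrays, the study reported ACSL5, ACSF2 and ACSM6 as higher in U87WT in basal conditions, a difference it described as lost after IGF1. It listed ACSL5, ACSF2, ACSF3 and ACSL6 as underexpressed in U87WT after IGF1. Here the IGF1 log2 ratios were 0.56 for ACSL5, 1.16 for ACSF2, 0.52 for ACSM6, -0.22 for ACSF3 and 0.07 for ACSL6. The authors' ratios came from a background fit on all spots. By Western blot the study found ACSL5 protein lower in U87Mut and unchanged by IGF1. The 10 genes were chosen with earlier results of these data known, so that the limma counts and those above are no independent support. All 3 calls were lost (limma calls of 0) without the array of IGF1 with OSI906, and also with a background fitted on all spots, which is described below. No share of all named genes called is given for these settings. Without the array of IGF1 with OSI906 the mean log2 ratios were 0.61 for ACSL5, 1.02 for ACSF2 and 0.71 for ACSM6, with adjusted p values of 0.0579, 0.0606 and 0.112 (limma), and with the fit on all spots they were 0.46, 0.74 and 0.58. Without the FBS-free array ACSL5 and ACSF2 were called, and without the IGF1 array ACSL5, ACSF2, ACSM6 and ACSS2.

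**Figure D1:**
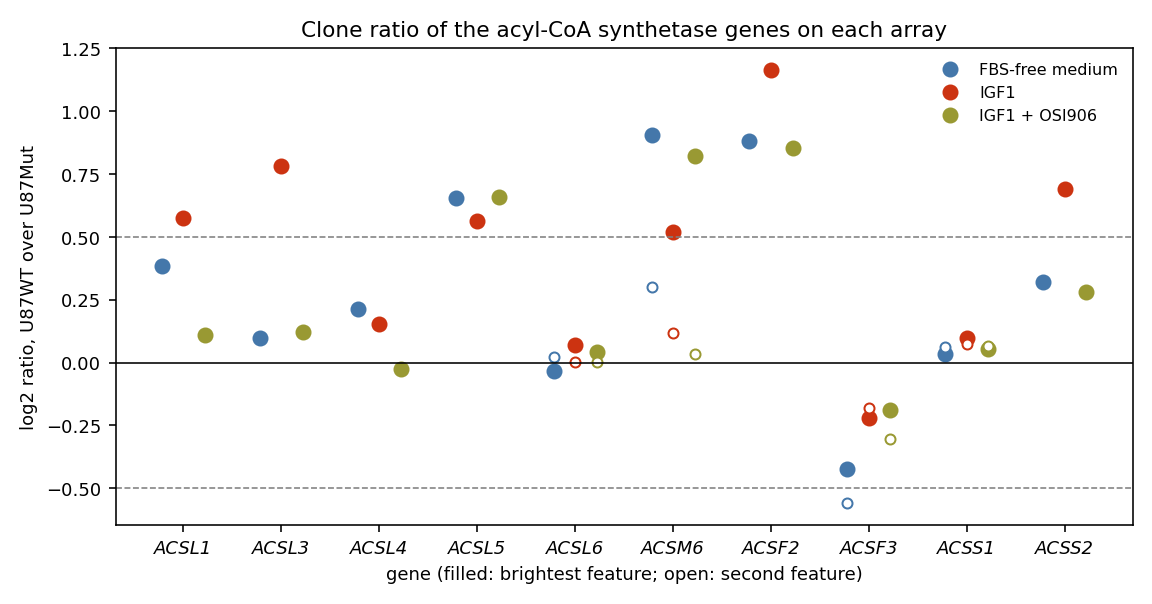
Log2 ratio of U87WT over U87Mut (vertical axis) for each of the 10 genes (horizontal axis) on the array of FBS-free medium (blue), IGF1 (red) and IGF1 with OSI906 (olive). Each point is 1 feature on 1 array; filled points are the brighter feature of a gene, open points its other feature, and dashed lines mark 0.5 and -0.5. ACSF2, ACSL5 and ACSM6 lie above 0.5 on all 3 arrays, and ACSL3, ACSL1 and ACSS2 only on the IGF1 array.

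The promoters shown are those of ACSL3, whose ratio changed most with IGF1, of ACSS2, which like ACSL3 passed the limit on the IGF1 array only, and of ACSM6, which was above it on every array. Each is the run of 250 bases that ends just before the annotated start of the gene, from RefSeq (GRCh38.p14, plus strand), and capitals mark CCAAT on either strand, the letters bound by NF-Y, a partner of SREBP.
ACSL3, chr2:222860786-222861035: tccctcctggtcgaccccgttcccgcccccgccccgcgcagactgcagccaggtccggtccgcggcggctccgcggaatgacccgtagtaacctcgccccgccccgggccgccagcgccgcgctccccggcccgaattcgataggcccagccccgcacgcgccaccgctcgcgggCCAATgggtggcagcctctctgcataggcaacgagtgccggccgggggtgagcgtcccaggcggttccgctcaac
ACSS2, chr20:34874739-34874988: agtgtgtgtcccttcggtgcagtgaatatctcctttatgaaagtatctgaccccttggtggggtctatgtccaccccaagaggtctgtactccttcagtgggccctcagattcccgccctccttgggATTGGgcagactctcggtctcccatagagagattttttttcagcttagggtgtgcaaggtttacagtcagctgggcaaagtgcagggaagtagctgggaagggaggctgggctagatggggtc
ACSM6, chr10:95193988-95194237: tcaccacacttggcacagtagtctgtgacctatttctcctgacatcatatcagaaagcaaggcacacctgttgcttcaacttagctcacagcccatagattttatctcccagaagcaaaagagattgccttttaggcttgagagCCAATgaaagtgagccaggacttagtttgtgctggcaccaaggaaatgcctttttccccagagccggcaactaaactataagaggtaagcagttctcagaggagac
RefSeq windows of this length were at hand for all 10 genes, 24 in all because several genes have more than 1 start. CCAAT stood in 5 of the 24, the printed ones among them, against 32.0% of 35116 promoters of all genes. ACSS2 has a second window, for a start 1623 bases inside the gene, without CCAAT. TCACNCCAC, a form of the sterol regulatory element bound by SREBP, stood in 2, which belong to ACSL1 and ACSL6, against 0.883% of all promoters. These 2 windows begin transcripts that start inside the annotated gene, by 21041 bases in ACSL1 and 12520 in ACSL6. CACGTG, an E-box bound by SREBP1 and by MLX with its partners, stood in 1, that of ACSF2, against 6.34%. The windows of ACSF2, ACSL5 and ACSL1 begin transcripts that start inside the annotated gene and are not printed. Each motif was searched on both strands and none overlaps another, and a match is a description of the letters only.

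The long-chain enzymes were ACSL1, ACSL3, ACSL4, ACSL5 and ACSL6. ACSL5, an enzyme of the mitochondrial outer membrane and endoplasmic reticulum (chromosome 10, 112374116 to 112428376, GRCh38.p14), had the smallest spread over the arrays of these 3 genes. Its feature, A_33_P3217983, had a brightness in U87WT of 646 in FBS-free medium, 555 with IGF1 and 500 with IGF1 and OSI906. In U87Mut it had 424, 258 and 292.5, over local backgrounds of 20 to 24. After normalization the log2 ratio was 0.65, 0.56 and 0.66. U87WT was the higher on each array, and the clones did not overlap on the normalized scale: the lowest U87WT level was 9.04 and the highest U87Mut level 8.65. The share of all named genes without such overlap is not given. The mean log2 ratio was 0.63 (SE 0.0387, n = 3 arrays), 1.54-fold, with an adjusted p of 0.00464 (limma). Within each clone the level was lower with IGF1 than in FBS-free medium, by a log2 difference of -0.27 in U87WT and -0.18 in U87Mut, both within the limit.

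ACSL3, which sits on the endoplasmic reticulum and on growing lipid droplets (chromosome 2, 222861036 to 222944639), had a ratio that moved with the condition. The brightness of A_24_P248606 in U87WT was 1234 in FBS-free medium, 1603.5 with IGF1 and 931.5 with IGF1 and OSI906. The brightness in U87Mut was 1202, 615 and 802.5. On the log2 scale the ratio was 0.10, 0.78 and 0.12, so that the clones were close on both other arrays and apart with IGF1. Over the 3 arrays the mean was 0.33 (SD 0.39, n = 3), with an adjusted p of 0.314 (limma).

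ACSL1, which serves both storage and oxidation of fatty acids, had a ratio past the limit on the IGF1 array. U87WT had a brightness of 1586, 1497.5 and 1179.5, and U87Mut had 1251, 667 and 1004.5. Its log2 ratio was 0.38, 0.57 and 0.11, with a mean of 0.36 (SE 0.0937, n = 3, adjusted p = 0.110, limma). U87WT stood above U87Mut on each array.

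ACSL4, which prefers arachidonic acid and other polyunsaturated chains, stayed within the limit. The brightness was 554.5, 540.5 and 460 in U87WT and 501, 339 and 450 in U87Mut, and the log2 ratio was 0.21, 0.15 and -0.03 (adjusted p = 0.367, limma). ACSL6, an enzyme of brain and nerve tissue, was dim. Its 2 features had a brightness of 23 to 30 over local backgrounds of 20 to 23. They were not well above background in U87Mut on any array. The ratios of both features, from -0.03 to 0.07, carry no order between the clones.

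The medium-chain enzymes are represented by ACSM6, a little studied member (chromosome 10, 95194238 to 95228929). Its feature A_33_P3246175 had a brightness of 93.5, 75 and 84 in U87WT. In U87Mut it had 33.5, 33 and 30 over local backgrounds of 21 to 22, so that U87Mut was only a little above its background. The log2 ratio was 0.91, 0.52 and 0.82, with a mean of 0.75 (SE 0.0838, n = 3), 1.68-fold, and an adjusted p of 0.0137 (limma). The size of this ratio rests on the background step: the mean was 1.15 with an offset of 20, 1.89 with an offset of 0 and 2.29 with plain subtraction. The second feature of ACSM6, dimmer still, had log2 ratios of 0.30, 0.12 and 0.03 (adjusted p = 0.266, limma), and it was well above background in U87Mut on 1 array. The 2 features thus differ in the size of the ratio.

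ACSF2, a mitochondrial enzyme outside the main groups, had the largest mean ratio of the 10 as processed here (chromosome 17, 50426218 to 50474845), though ACSM6 was above it with an offset of 20 (1.15 against 1.02), with an offset of 0 (1.89 against 1.05) and with plain subtraction (2.29 against 1.07). The brightness of A_23_P4190 in U87WT was 982 in FBS-free medium, 1048 with IGF1 and 790 with IGF1 and OSI906. In U87Mut it was 544, 307 and 404. The log2 ratio was 0.88, 1.16 and 0.85, and the clones did not overlap on any array or between arrays, again with no share of all named genes given. The mean was 0.97 (SE 0.0730, n = 3), 1.95-fold, with an adjusted p of 0.00638 (limma). From FBS-free medium to IGF1 the level in U87WT differed by 0.03 and the level in U87Mut by -0.25, on the log2 scale.

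ACSF3, which makes malonyl-CoA in mitochondria, ran the other way. U87WT had a brightness of 586, 698 and 682, and U87Mut had 843.5, 565 and 743. After normalization U87Mut was above U87WT on each array, with log2 ratios of -0.42, -0.22 and -0.19 and a mean of -0.28 (SE 0.0583, n = 3, adjusted p = 0.0630, limma), although on the IGF1 array median centring in place of loess gave 0.16, the fit on all spots -0.48 and the deposited ratios -0.57. The second feature of ACSF3 gave -0.56, -0.18 and -0.31 (adjusted p = 0.0789, limma). It lay past -0.5 in FBS-free medium. Tested among features that were bright on all arrays only, the brighter feature had an adjusted p of 0.0451 (limma).

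ACSS2, the enzyme of cytosol and nucleus that turns acetate into acetyl-CoA, had the second largest ratio with IGF1 after ACSL3 among the genes within the limit in FBS-free medium. Its brightness was 821, 881 and 611 in U87WT and 685, 366 and 473 in U87Mut. The log2 ratio was 0.32, 0.69 and 0.28, with a mean of 0.43 (SE 0.0914, n = 3, adjusted p = 0.0647, limma). The ratio had the same sign on each array and passed the limit with IGF1 only. ACSS1, its mitochondrial relative, was dim. The brighter of its 2 features had a brightness of 31 to 32 in U87WT and 25.5 to 28 in U87Mut. The second, printed in 10 copies, was not well above background in either clone. The log2 ratios were 0.03, 0.10 and 0.05 for the brighter feature (adjusted p = 0.424, limma). For the second they were 0.06, 0.07 and 0.07 (adjusted p = 0.357, limma). No difference in ACSS1 was detectable at this signal.

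The IGF1 array was next set against both other arrays, to ask which clone ratios changed with IGF1 and whether OSI906 kept them from changing. The ratio of ACSL3 was 0.68 log2 units higher with IGF1 than in FBS-free medium, 1 of 10 genes past 0.5 against 2.28% of all named genes. Against IGF1 with OSI906 it was 0.66 higher, again 1 of 10, against 2.52%. With the background fitted on all spots these differences of ACSL3 were 0.23 and 0.19, and with the deposited ratios 0.16 and 0.13, within the limit. Over features that were bright on all arrays the SD of these differences was 0.255 and 0.257. ACSS2 followed with 0.37 and 0.41, ACSL1 with 0.19 and 0.46, and ACSF2 with 0.28 and 0.31, all within the limit. ACSM6 had differences of -0.39 and -0.30. Both comparisons share the IGF1 array, so that its own error is in both, and with 1 array a condition they have no replicate check.

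The separate channels gave the part of each clone. For ACSL3, U87WT was 0.29 log2 units higher with IGF1 than in FBS-free medium and U87Mut was 0.39 lower, on levels of 10.49 and 10.20 in U87WT and of 9.71 and 10.10 in U87Mut. Against IGF1 with OSI906, U87WT was 0.54 higher with IGF1 alone, 1.45-fold, and U87Mut had a difference of -0.12. That was the only difference between arrays within a clone to pass 0.5 among the 10 genes, where 2.72% of all named genes passed in U87WT. For ACSL1 and ACSS2 the U87Mut level with IGF1 differed from that in FBS-free medium by -0.34 and -0.33, and the U87WT level by -0.15 and 0.04. A channel of one array is here compared with a channel of another, so that differences between the hybridizations are included.

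**Figure D2:**
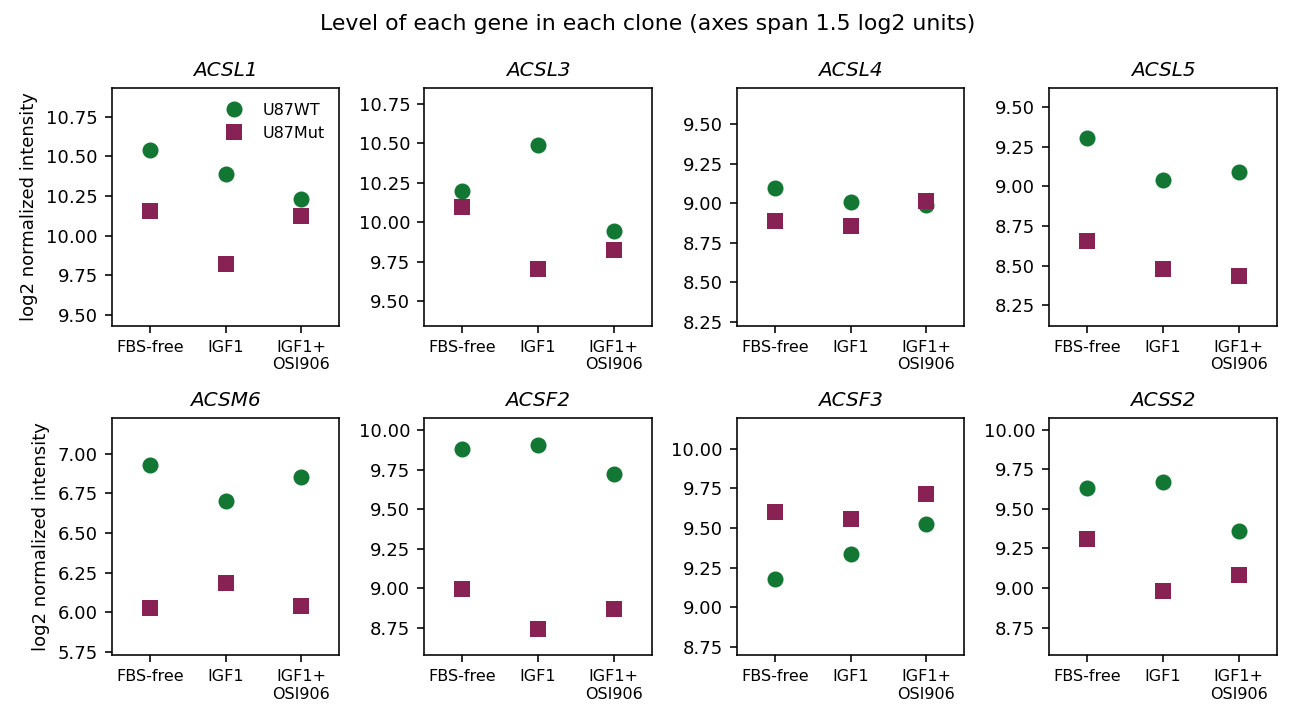
Normalized log2 intensity (vertical axis) of the 8 genes that were well above background, in U87WT (green circles) and U87Mut (purple squares) on each array (horizontal axis). Each point is 1 channel of 1 array, every panel spans the same number of log2 units, and levels of different genes are not comparable. ACSF2, ACSL5 and ACSM6 keep the clones apart in every condition, while ACSL3 has them close in FBS-free medium (10.20 and 10.10) and apart with IGF1 (10.49 and 9.71).

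The IGF1 array carried 572 spots flagged by the scanner software for uneven brightness, against 384 and 5 on the arrays of FBS-free medium and of IGF1 with OSI906, and they decided the background fit. Where the fit included them, the Cy5 background of that array had an SD of 701 brightness units, against 1.32 without them. No spot of the 10 genes was among these uneven ones. With all spots in the fit the IGF1 ratio of ACSL5 was 0.08 in place of 0.56, that of ACSM6 0.06 in place of 0.52, that of ACSF2 0.51 in place of 1.16, that of ACSL3 0.31 in place of 0.78 and that of ACSS2 0.15 in place of 0.69. ACSF2 was then the only one of the 10 above the limit on that array.

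Genes of the same brightness moved along with these genes, except for those like ACSM6. The 1137 genes of like brightness to ACSL5 had a median ratio of 0.05 without the uneven spots and of -0.20 with them. For the 1128 genes of like brightness to ACSF2 the medians were 0.03 and -0.30. The 2231 genes of like brightness to ACSM6 had medians of 0.012 and 0.0014, while ACSM6 itself went from 0.52 to 0.06. Read against genes of their own brightness, ACSL5, ACSF2, ACSM6, ACSL3 and ACSS2 kept nearly the same place under either fit. Either fit treats genes of one brightness nearly alike, so that these places could hardly change. They do not tell which fit is sounder. ACSL5 stood at percentile 92.8 and 92.9, ACSF2 at 99.2 and 99.2, ACSM6 at 98.3 and 98.1, ACSL3 at 96.2 and 96.2, and ACSS2 at 96.5 and 96.4. On the FBS-free array the fit on all spots gave ACSF2 0.86 in place of 0.88, ACSL5 0.64 in place of 0.65 and ACSM6 0.87 in place of 0.91, and with IGF1 and OSI906 these 3 ratios did not change in the digits given here. Over all settings the ratio of ACSF2 ran from 0.60 to 1.07 in FBS-free medium and from 0.47, with the deposited ratios, to 1.54 with IGF1.

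**Figure D3:**
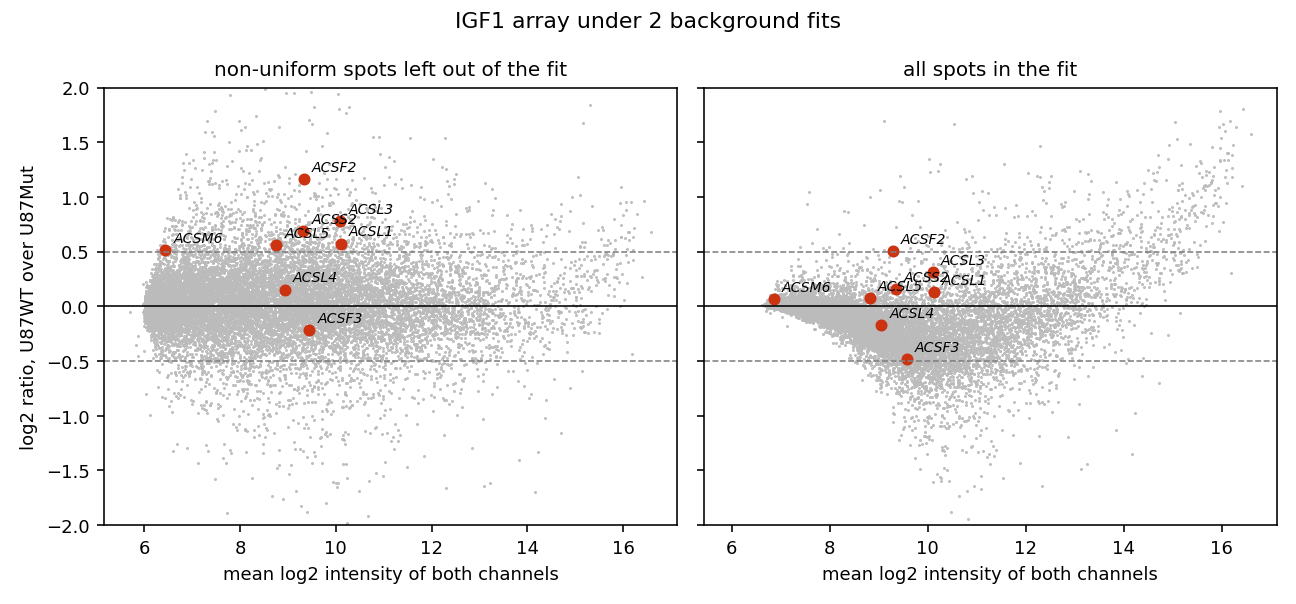
Log2 ratio of U87WT over U87Mut on the IGF1 array (vertical axis) against the mean log2 intensity of both channels (horizontal axis) for 15343 genes well above background (grey), with the 8 bright acyl-CoA synthetase genes in red. On the left the background was fitted without the uneven spots, on the right with all spots, where genes of middle brightness sink below 0 and ACSL5 drops from 0.56 to 0.08; ratios beyond the axis are not drawn.

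**Figure D4:**
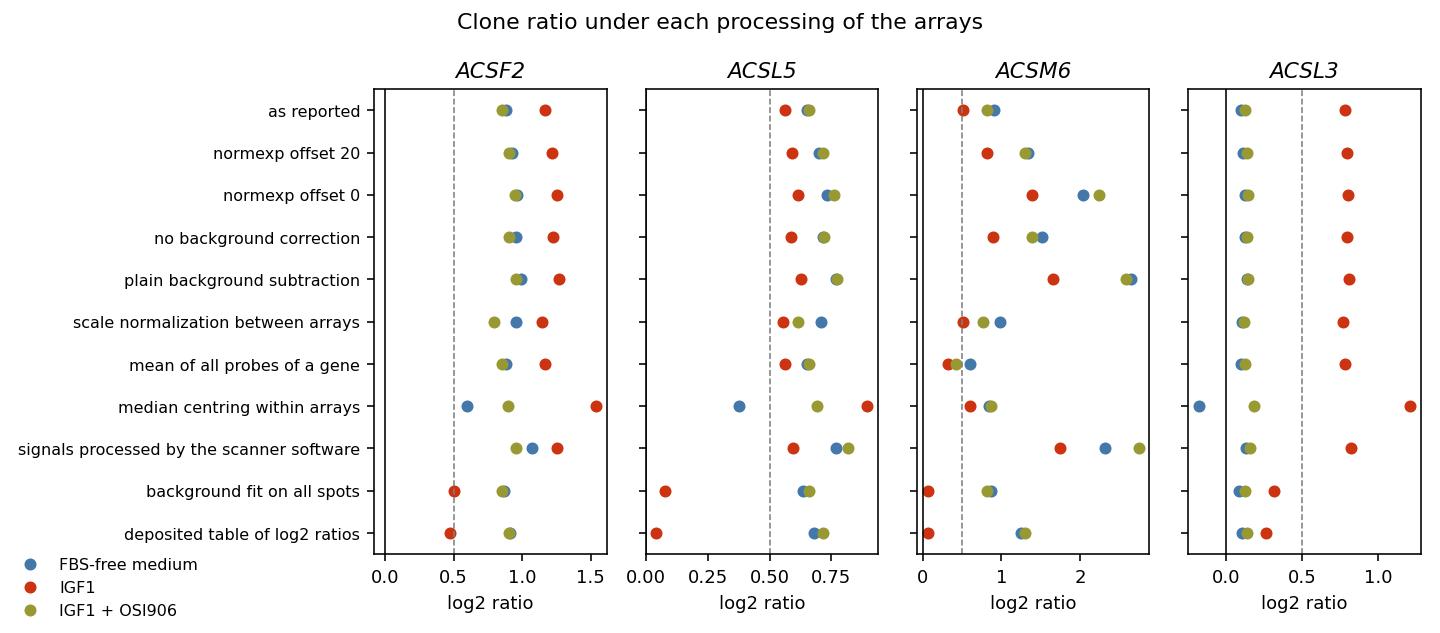
Log2 ratio of U87WT over U87Mut (horizontal axis, a scale for each panel) for ACSF2, ACSL5, ACSM6 and ACSL3 on each array (colors) under the processing reported here and 10 alternatives (vertical axis); the dashed line marks 0.5. The FBS-free ratio of ACSF2 stays above 0.5 throughout (0.60 to 1.07), while the IGF1 ratio of ACSL5 spans 0.04 to 0.90.

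The other acyl-CoA synthetases, 16 genes that include the SLC27 fatty acid transport proteins, were set beside these 10. Of the 15 with a feature, 7 were well above background. Called higher in U87WT were 3 and lower 1 (limma), against 7% and 6.65% of all named genes. SLC27A1 had a mean log2 ratio of 0.76 (adjusted p = 0.00461, limma), but its second feature, also bright, had 0.15, 0.08 and 0.14 on the arrays (adjusted p = 0.136, limma). The mean of ACSS3, a propionyl-CoA synthetase of mitochondria, was 0.27 (adjusted p = 0.0189). SLC27A4 had -0.27 (adjusted p = 0.0250) and AASDH -0.07 (adjusted p = 0.557, limma). The third called higher was SLC27A3, with 0.23 (adjusted p = 0.0256, limma), named after its value was seen. The median over the 15 genes was 0.06, 0.01 and 0.02 on the 3 arrays.

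Of the thioesterases, which split acyl-CoA again, and the acyl-CoA binding proteins, 15 of 16 had a feature. By the brightest feature of a gene 3 were called higher in U87WT and none lower (limma), against 7% and 6.65% of all named genes. At an unadjusted p under 0.05 (limma), 5 were higher and 1 lower, against 15.4% and 14.7%. DBI, the acyl-CoA binding protein that carries the products of these enzymes, had a mean log2 ratio of 0.80 (adjusted p = 0.00541, limma), with 0.93, 0.74 and 0.73 on the arrays. ACOT8 had 0.46 (adjusted p = 0.00981), and ACOT1, named after its value was seen and so like ACOT2 in sequence that a feature may bind either, 0.45 (adjusted p = 0.00748, limma). A second feature of ACOT9 would be called lower, with -0.19, -0.23 and -0.24 (adjusted p = 0.0304, limma), while its brighter feature had 0.12, 0.20 and 0.14 (adjusted p = 0.0846, limma). The lowest means were -0.20 for ACBD3 and -0.13 for ACOT11 (adjusted p = 0.498 and 0.205, limma). Of the factors known to act on acyl-CoA synthetase genes, 11 of 12 had a feature. By the brightest feature 3 were called higher and none lower (limma), and at an unadjusted p under 0.05, 3 were higher and 3 lower. The shares of all named genes are those given for the thioesterases. NR1H3, the oxysterol receptor LXR alpha, had a mean log2 ratio of 1.02 (adjusted p = 0.00437) and SREBF1, which encodes SREBP1, of 0.72 (adjusted p = 0.00879, limma). A second bright feature of SREBF1 had -0.09, -0.03 and -0.13 on the arrays (adjusted p = 0.299, limma), so that the 2 features of SREBF1 disagree in sign. PPARD, named after its value was seen, had 0.40 (adjusted p = 0.0161), with an adjusted p of 0.131 for its second feature, while MLXIPL and PPARG had -0.39 and -0.36 (adjusted p = 0.0650 and 0.0610, limma). The second feature of PPARG had -0.62, -0.44 and 0.09 (adjusted p = 0.299, limma).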

How the data were processed

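Gene expression of U87WT 5 and U87Mut 5 was measured on 3 arrays of the Agilent SurePrint G3 Human design (v3). The deposited intensity values are scanner output (Feature Extraction 12.0.3.1, per the file headers) with no normalization, as median signals for every spot and for the background around it. The same files hold processed intensities and a log10 ratio of these, red over green, per the file headers. A further table from the authors holds log2 ratios (U87WT against U87Mut) made with limma. From the values, these equal normexp on all spots with an offset of 20 followed by loess, within 0.001 for 58341 of 58341 rows on every array. The submitters' processing notes name limma, with no version.

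Here, ratios on the log2 scale came from limma 3.58.1, run in R 4.3.3 (tables read by the package data.table, 1.17.8). The normexp fit (offset 50) left out spots marked as not uniform. Of 62976 spots per array, 2075 controls were removed. Loess within arrays, with weight 0 for controls and outlier spots, and Aquantile between arrays followed, and replicate spots were reduced to their mean. Names came from RefSeq transcripts (GRCh38.p14), for 34892 of 36770 probes with one. Genes were called by size, above 0.5 or below -0.5 in log2 ratio. Clone differences over the 3 arrays were tested in limma by an intercept model with eBayes (two-sided, Benjamini-Hochberg at 5%). Precision is limited by the number of arrays, 1 a condition. Every feature of the 10 genes is given, and of each comparison list at most the 2 highest and 2 lowest means among bright features, with exceptions marked. The members and lists were chosen with earlier results of these data known. A single marker gene is left out of this account. The background fit, the processing to ratios and the limma test were tested on simulated data. Alternatives changed the background fit, its offset, the normalization, the source of the values, the limit, the probes of a gene and the arrays used. Plain background subtraction was added after seeing the data.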

Additional observations from a re-analysis of the deposited data

Results flagged for a closer look

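The difference of ACSL3 between the IGF1 array and each other array had opposite signs in the clones. Against FBS-free medium, the log2 difference was 0.29 in U87WT and -0.39 in U87Mut, a gap of 0.68. Against IGF1 with OSI906 it was 0.54 in U87WT and -0.12 in U87Mut, a gap of 0.66. Of these differences within a clone, only the 0.54 passed the limit of 0.5. Over bright features the SD of such differences was 0.27 in U87WT and 0.22 in U87Mut against FBS-free medium. Against IGF1 with OSI906 it was 0.31 and 0.23. The share of all named genes with opposite signs is not given. Each clone had 1 array per condition, so that the difference between the clones was not tested, and both gaps use the same IGF1 array. The gaps were 0.23 and 0.19 with the background fitted on all spots and 0.16 and 0.13 with the deposited ratios.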

How the results depend on the processing

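No reported direction past the limit or the test reversed under any alternative. The number of the 10 genes called higher by limma, 3 as reported, was 0 with a background fit on all spots, 0 with the deposited log2 ratios, 0 with median centring, 0 with the scanner software's signals, 0 with plain background subtraction (added after seeing the data) and 1 with an offset of 0, while 3 to 6 were higher at an unadjusted p under 0.05 in these settings. Leaving out each array in turn gave 0 to 4. Apart from the shares printed below, none over all named genes is given for the alternatives. A change in these counts therefore cannot be told apart from a change over the whole array. With only bright probes tested, 1 gene (ACSF3) was called lower by limma. ACSL5, ACSF2 and ACSM6 were each called in 7 of 14 alternatives. Their highest adjusted p values were 0.310, 0.302 and 0.333 and their lowest 0.00122, 0.000488 and 0.000778 (limma). With a background fit on all spots, 1 gene passed the limit on the IGF1 array, 1 on every array, and with the deposited ratios 0 and 0, with 1 below it. The ratio difference of the IGF1 array against both others then passed 0.5 in 0 genes and fell below -0.5 in 2 genes, under either, where 4.34% to 7.37% of all named genes fell below it, and the U87WT level differed from FBS-free medium by over 0.5 in 2 genes with the fit on all spots.

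With a limit of 0.5 SD of each array, the rule in the study's methods, 6 genes were above it in FBS-free medium, 6 with IGF1 and OSI906 and 5 on every array, and 1 was below it on each array. Of all named genes, 20.5% were above 0.5 SD in FBS-free medium and 22.3% with IGF1 and OSI906. With a limit of 1 the counts above were 0, 0 and 0, and 1 on the IGF1 array. No share of all named genes is given for the limit of 1, or for 0.5 SD on every array or below. In median centring 1 gene was below the limit in FBS-free medium, and the ratio difference passed 0.5 in 7 genes against FBS-free medium and in 4 against OSI906, as it did in 34.4% and 13.5% of all named genes, with 4 genes past 0.5 in U87Mut and 1 in U87WT from FBS-free medium to IGF1. With the scanner software's signals 1 gene was below the limit in FBS-free medium. The difference against FBS-free medium passed 0.5 in 3 genes and -0.5 in 1, that against OSI906 passed -0.5 in 1, and past 0.5 within a clone were 2 genes in U87WT and 1 in U87Mut against FBS-free medium and 1 in U87Mut against OSI906. An offset of 0 gave 2 genes above and 1 below against FBS-free medium, and 1 below against OSI906, where 1 gene passed in U87Mut. Plain subtraction gave 3 above and 1 below against FBS-free medium and 2 above and 1 below against OSI906, with 3 genes in U87WT and 5 in U87Mut past 0.5 against FBS-free medium and 2 in U87Mut against OSI906. With the scanner software's signals, an offset of 0 or plain subtraction, 10% to 18.3% of all named genes passed each of these limits on the ratio difference. For the counts within a clone, no share of all named genes is given under any alternative. An offset of 20 and no background correction each gave 1 gene below -0.5 against FBS-free medium, where 2.45% and 3.31% of all named genes were. The cause of these shifts was not tested, other than that the fit on all spots includes the spots marked as not uniform.

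No paired analysis was possible because no replicates across conditions share a number; the limma fit already uses the ratio of both clones within each array. The alternative with mean spot signals was not run, since the files used here give median signals. ACSL6, ACSS1 and the second feature of ACSM6 are limited by signal over background.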
